A study of Mus musculus with 4 samples.

Results

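The regions described here were dense clusters of SMAD4 binding in alveolar macrophages (AMs), the resident phagocytes of the lung airspaces. Overlapping peaks (1 bp or more) of both SMAD4 libraries were joined into 10964 shared regions, each with a peak from either library. Neighbouring shared regions with edges at most 12.5 kb apart were stitched, which gave 7604 groups on 20 chromosomes. The dense clusters were the 310 groups with 4 or more shared regions, and they held 1474 shared regions, or 13.4% of all of them. The measured peaks themselves chose the clusters, so fold and peak counts within them are given as descriptions without a test.

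AMs came from wild-type C57BL/6J mice aged 9 weeks and were obtained by lavage of the airspaces and flow sorting. No group carried a deletion or a treatment. SMAD4 was profiled by HT-ChIPmentation, which captures cross-linked chromatin with an antibody and lets a transposase add sequencing adapters to it on the beads. The design held 2 SMAD4 libraries and 2 input libraries made without the antibody, and the inputs entered only as the control behind each peak. The sources used here do not say whether the libraries came from separate mice.

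SMAD4 is the common partner of the receptor-activated SMAD proteins. It enters the nucleus with them after a TGFβ family ligand has bound its receptors, and TGFβ made in the lung is required for AMs to develop and persist. SMAD complexes bind DNA weakly on their own and usually occupy enhancers that lineage factors such as PU.1 and CEBP proteins hold open. Runs of neighbouring enhancers are often found near genes that a cell type expresses strongly, and the stitching distance used here is the one customary for such runs.

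The sequences at the strongest region of several clusters are shown first, because each is the place of the highest smaller fold in its cluster. Each is the 201 bp centred on the mean summit of both replicates, printed on the plus strand of GRCm38.p6 (mm10) from RefSeq. Capitals mark any of 10 short strings on either strand. The CEBP string was TT, then A or G, then C or T, then A or G, then C or T, then AA. The others were GAGGAAGT (PU.1), CAGGAAGT (an ELF5-type ETS string), TGACTCA or TGAGTCA (AP-1), TGTGGTC or TGTGGTT (RUNX), TTCNNNGAA (STAT5), CACGTG (E-box), AGGTCA (the core site of nuclear receptors), GTCTGG (SMAD) and GTGGGAA (RBPJ). A match is a description of the letters and not a proven site.
Cd33 (chr7:43546080-43546280): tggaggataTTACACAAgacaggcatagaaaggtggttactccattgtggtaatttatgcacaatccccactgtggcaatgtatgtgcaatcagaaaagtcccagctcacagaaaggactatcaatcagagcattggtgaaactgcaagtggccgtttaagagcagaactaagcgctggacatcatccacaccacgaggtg
Clvs1 (chr4:9110471-9110671): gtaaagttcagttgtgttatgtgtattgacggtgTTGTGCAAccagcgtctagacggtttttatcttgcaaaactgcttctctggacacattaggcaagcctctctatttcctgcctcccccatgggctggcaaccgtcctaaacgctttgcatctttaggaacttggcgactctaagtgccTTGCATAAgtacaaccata
Tlr2 (chr3:83859801-83860001): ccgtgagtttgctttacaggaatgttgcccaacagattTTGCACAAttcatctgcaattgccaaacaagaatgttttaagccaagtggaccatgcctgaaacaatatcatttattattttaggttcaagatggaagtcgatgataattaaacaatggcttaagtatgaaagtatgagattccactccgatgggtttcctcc
Cd36 (chr5:17833922-17834122): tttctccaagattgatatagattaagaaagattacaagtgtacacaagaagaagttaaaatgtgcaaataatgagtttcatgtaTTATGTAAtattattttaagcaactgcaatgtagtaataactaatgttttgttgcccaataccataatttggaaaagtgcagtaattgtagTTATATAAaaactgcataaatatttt
Ccl6 (chr11:83593484-83593684): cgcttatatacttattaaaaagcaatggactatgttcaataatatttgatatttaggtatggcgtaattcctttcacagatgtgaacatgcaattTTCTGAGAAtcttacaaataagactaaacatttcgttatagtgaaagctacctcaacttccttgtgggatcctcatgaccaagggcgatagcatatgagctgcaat
Fpr1 (chr17:17900856-17901056): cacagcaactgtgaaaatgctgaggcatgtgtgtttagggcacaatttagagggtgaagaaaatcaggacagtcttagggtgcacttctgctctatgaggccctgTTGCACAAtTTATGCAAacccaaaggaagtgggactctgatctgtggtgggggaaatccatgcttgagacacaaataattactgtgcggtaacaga
Klf6 (chr13:5875612-5875812): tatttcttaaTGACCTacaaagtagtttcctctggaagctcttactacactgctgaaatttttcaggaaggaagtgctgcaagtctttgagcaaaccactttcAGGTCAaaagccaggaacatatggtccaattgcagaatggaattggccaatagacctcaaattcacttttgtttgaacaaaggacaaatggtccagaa
Trib1 (chr15:59652925-59653125): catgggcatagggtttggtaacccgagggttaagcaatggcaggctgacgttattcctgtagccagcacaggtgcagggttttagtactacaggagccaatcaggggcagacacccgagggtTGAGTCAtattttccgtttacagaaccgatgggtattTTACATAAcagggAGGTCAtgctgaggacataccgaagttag

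Of these windows, 6 held a CEBP string, and the windows of Fpr1, Cd36 and Clvs1 held more than 1. The printed windows are a selection from the named clusters and do not stand for all of them. Over all 310 clusters, the strongest region held a CEBP string in 27.4%. Some windows not printed, such as that of Cbwd1 with folds of 40.6 and 50.1, held none of the strings. In the Fpr1 window a single base separated TTGCACAA from TTATGCAA. The Ccl6 window held only a STAT5 string, and the Klf6 window held a pair of AGGTCA core sites, 1 on each strand. Of these windows, that of Trib1 held the most kinds of string, with AP-1, CEBP and nuclear receptor letters.

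The 6 regions of the Pparg cluster are shown as 101 bp windows, because they lie around a promoter of the gene for PPARγ, the nuclear receptor of lipid metabolism that AMs need for their identity. They are numbered along the chromosome.
Pparg region 1 (chr6:115411654-115411754): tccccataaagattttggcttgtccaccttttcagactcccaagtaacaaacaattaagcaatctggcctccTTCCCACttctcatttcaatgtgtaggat
Pparg region 2 (chr6:115412544-115412644): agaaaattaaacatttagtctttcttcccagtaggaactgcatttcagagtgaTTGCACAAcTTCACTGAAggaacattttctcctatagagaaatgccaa
Pparg region 3 (chr6:115421764-115421864): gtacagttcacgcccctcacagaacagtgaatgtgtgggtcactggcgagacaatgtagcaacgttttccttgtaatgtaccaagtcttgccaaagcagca
Pparg region 4 (chr6:115424620-115424720): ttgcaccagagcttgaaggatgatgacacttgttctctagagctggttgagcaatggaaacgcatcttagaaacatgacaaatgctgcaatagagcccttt
Pparg region 5 (chr6:115430976-115431076): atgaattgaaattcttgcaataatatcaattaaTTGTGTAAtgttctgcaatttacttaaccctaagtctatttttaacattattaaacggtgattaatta
Pparg region 6 (chr6:115432649-115432749): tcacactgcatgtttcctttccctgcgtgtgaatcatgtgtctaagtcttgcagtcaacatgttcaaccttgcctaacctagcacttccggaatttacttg

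The 3 strongest Pparg regions, numbers 3, 4 and 6, held none of the strings in these windows, whereas the weaker numbers 2 and 5 held a CEBP string. Region 1 held an RBPJ string. In the wider windows of 201 bp, region 4 also held a SMAD string and region 6 a RUNX string, so that 5 of the 6 regions then held a string.

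Most stitched groups were small. Single regions made up 5547 groups, pairs 1298 and triplets 449, and among the clusters 182 had 4 regions, 64 had 5, 41 had 6, 12 had 7, 6 had 8, 4 had 9 and 1 had 12. The groups just below the limit, with 3 regions, had a median span of 10380 bp, and those just inside, with 4 regions, 14370 bp. Their median folds were 6.83 and 7.15 in replicate 1, and 9.48 and 10.4 in replicate 2. At the distance limit, the widest gap stitched within a cluster was 12494 bp and the narrowest gap left unstitched was 12509 bp.

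**Figure D1:**
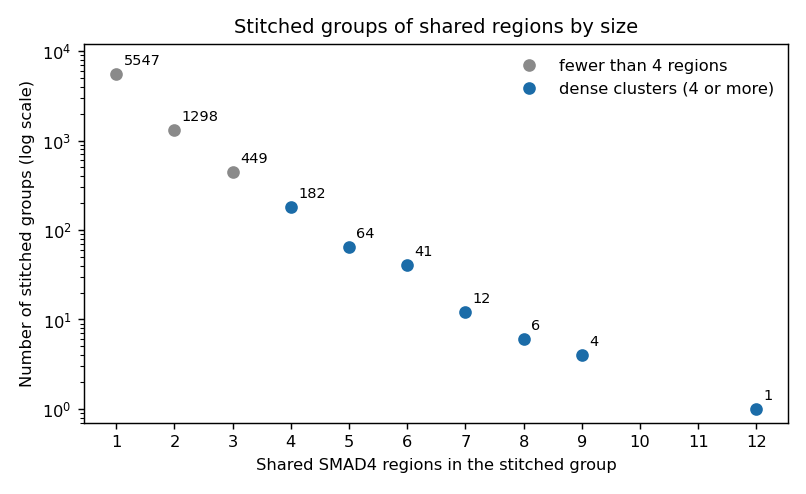
Number of stitched groups (log scale) against the number of shared SMAD4 regions in the group, with the count beside each point and dense clusters in blue. Counts fall from 5547 single regions to 4 groups of 9 regions and 1 of 12, with no break at the limit of 4.

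The clusters together spanned 5.82 Mb, or 0.227% of the sequenced bases of the genome. A cluster spanned a median of 16820 bp, from 2738 bp to 56804 bp, and its shared regions covered a median of 13.1% of that span. The 1164 gaps inside clusters had a median of 3424 bp, and 727 of them were under 5 kb, whereas neighbouring shared regions over the whole genome lay a median of 38220 bp apart. Short gaps are what the rule selected. Clusters occurred on every chromosome that had peaks, from 3 on X to 26 on each of chromosomes 2 and 6.

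Fold enrichment is the fragment pileup at a summit plus 1, divided by the control level plus 1. Its median was 7.15 in clustered regions and 6.56 in the other shared regions of replicate 1, and 10.4 and 9.48 in replicate 2. The ratio of these medians was 1.09 ± 0.00414 (SD, n = 2), and the 2 replicates measure only the spread between these libraries. The median clustered summit held 22 fragments in each replicate, and the exact Poisson 95% interval of such a count, which covers counting error only, ran from 13.8 to 33.3. Clustered regions were slightly wider, with a median of 474 bp against 435 bp. When shared regions were split into 10 classes of equal size by the smaller fold of the 2 replicates, clustered regions made up 12.96% of the weakest class and 16.3% of the strongest, with the lowest share, 11.1%, in the second class.

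Of the 10 shared regions with the largest smaller fold, 1 lay in a cluster. Of the first 100, 21 did, of the first 500, 17.6% did, and of the first 1000, 16.7% did, beside the 13.4% of all shared regions. Within a cluster the signal was uneven. The strongest region held a median of 36.04% of the summed smaller fold, from 17.4% in the Nceh1 cluster to 67.1% in the Cbwd1 cluster. In 238 of 310 clusters (76.8%) both replicates had the same strongest region. Across clusters, the summed folds of the replicates had a Spearman rank correlation of 0.926 (n = 310 clusters), a description in which the number of regions per cluster is shared by both axes. Fold across the 1474 clustered regions had a rank correlation of 0.810 between replicates, and across the other shared regions 0.777.

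**Figure D2:**
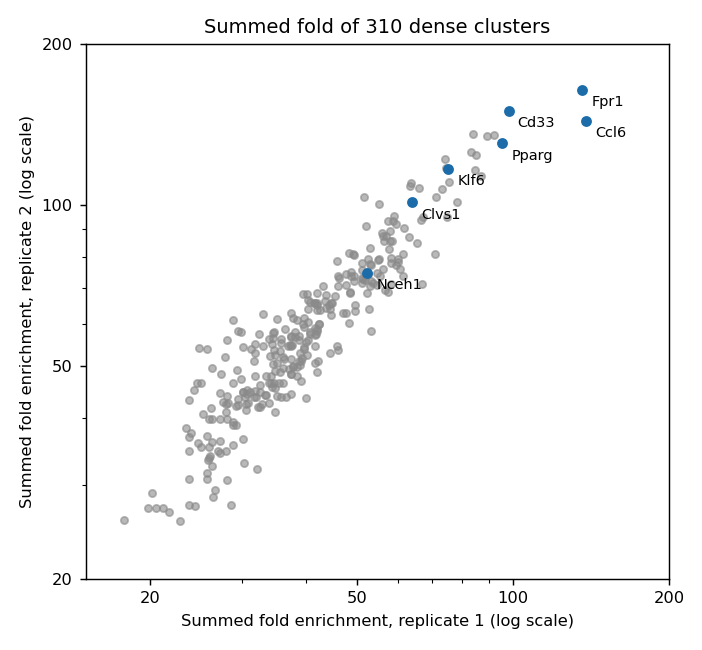
Fold enrichment summed over the shared regions of each of the 310 dense clusters, replicate 1 against replicate 2, both on log scales, with 7 clusters named by their leading gene. The Ccl6 cluster has the highest sum in replicate 1 (138.6) and the Fpr1 cluster in replicate 2 (163.9).

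Peaks found in only 1 library were scarce within the cluster spans. In replicate 1, 1627 peaks lay in the spans and 87 of them belonged to no shared region. In replicate 2 these numbers were 1709 and 187. Hence 94.7% and 89.1% of peaks in the spans had a partner, against 69.4% and 59.2% of all peaks. The rule itself raises this share, since each span had to hold at least 4 shared regions and begins and ends with such a region. The contrast is therefore a description of the selection. The control level was at most 7.06 fragments at clustered summits in replicate 1 and 3.24 in replicate 2. The most frequent levels over all peaks of each replicate were 2.08 and 1.22.

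A gene is given here as the one with the closest transcription start site (TSS), a naming convention that shows no regulation. In 241 clusters all regions had the same nearest gene, in 61 they had 2 and in 8 they had 3. The clusters were nearest to 370 genes, 321 of them protein-coding, which is 1.53% of all 20923 protein-coding genes. A protein-coding TSS lay inside the span of 94 clusters, and 116 genes, or 0.554%, had their TSS in a span. For comparison, 21.5% of protein-coding genes had a shared region of any kind assigned to them. Of the clusters, 113 lay wholly within the body of 1 gene, 98 were wholly intergenic and 99 were neither.

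Chemokine genes held the cluster with the most regions. Where values come in pairs, the first is replicate 1 and the second replicate 2. Ccl6 and Ccl3 encode chemokines that attract leukocytes, and 12 shared regions lay over chr11:83592925-83649728 (mm10), 7 of them nearest to Ccl6 and 5 to Ccl3. The strongest region began this cluster, 497 bp upstream of the Ccl6 TSS, and had folds of 33.2 in replicate 1 and 29.6 in replicate 2. The other 11 had folds between 4.55 and 14.95 in replicate 1 and between 4.51 and 19.4 in replicate 2, so that the promoter region stood clear of the rest in both. At the other end, the region at the Ccl3 promoter was among the weakest, at 4.55 and 4.61. A further chemokine cluster of 6 regions was nearest to Ccl2, with folds from 3.63 to 12.4 and from 4.56 to 18.1.

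The 9 regions over chr17:17865129-17902134 were nearest to Fpr1 (4), Fpr2 (3) and Has1 (2), which encode 2 formyl peptide receptors that sense bacterial peptides and a hyaluronan synthase. Folds ran from 4.11 to 30.9 in replicate 1 and from 7.54 to 38.8 in replicate 2. Here the replicates differed in their strongest region: replicate 1 had 30.9 within an intron of Fpr2 and 28.6 in the last region, and replicate 2 had 23.3 and 38.8. The Trem1 cluster, with 7 regions over chr17:48215516-48247940, held the promoters of Trem1, an amplifier of inflammatory signals in myeloid cells, and of Trem3. Its region at the Trem1 promoter was the strongest, at 11.1 and 16.2, and its region at the Trem3 promoter had 7.80 and 9.02. The Tlr2 cluster, with 5 intergenic regions 18293 bp to 46947 bp upstream of the gene for the receptor of bacterial lipoproteins, had 2 high regions, at 38.4 and 24.1 in replicate 1 and 42.0 and 43.3 in replicate 2. The remaining 3 lay between 6.83 and 8.13 and between 8.12 and 12.6.

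By the smaller fold of the 2 replicates, the strongest clustered region was near Cd33, the gene for a sialic acid receptor of myeloid cells. It lay 13009 bp upstream of the TSS and had folds of 48.1 and 69.9. A second strong region of the same cluster was intronic, 2658 bp past the TSS, and had 25.7 and 47.8. The region at the Cd33 promoter itself had only 6.50 and 8.57. The whole cluster had 5 regions over chr7:43530206-43546683. Clusters near Cbwd1 and Clvs1 were of another kind, with 1 dominant region each. Near Clvs1, which encodes a protein of clathrin-coated vesicles, that region lay 158722 bp from the TSS and had 39.7 and 71.3, and its 3 neighbours lay between 6.50 and 11.1 and between 7.67 and 11.7. The dominant Cbwd1 region had 40.6 and 50.1, beside 3 regions between 5.53 and 8.45 and between 7.22 and 9.48.

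**Figure D3:**
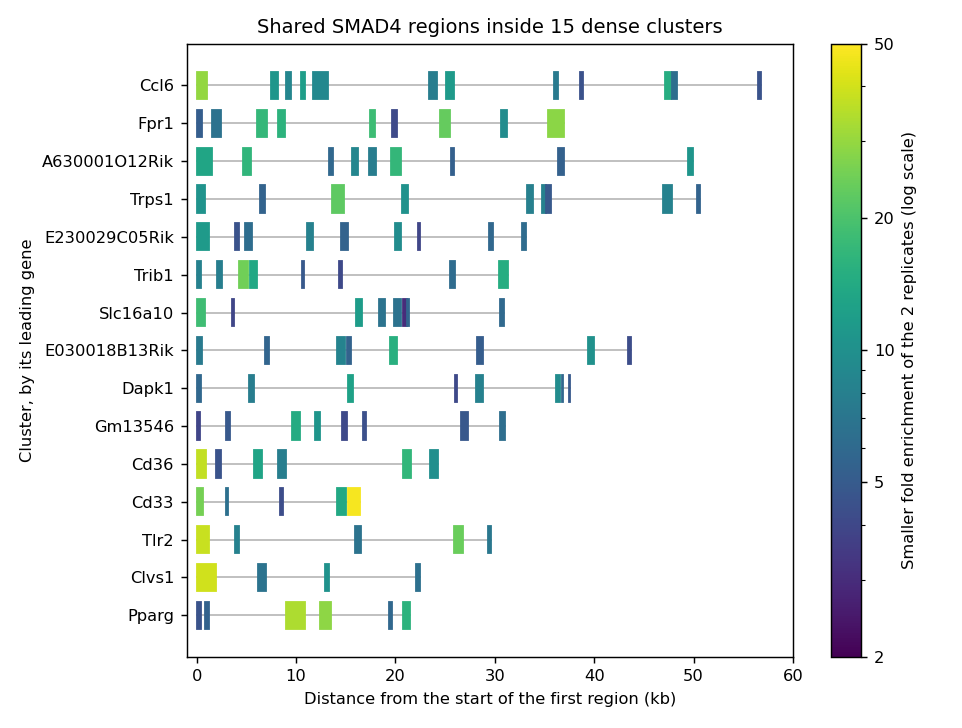
Position of each shared SMAD4 region (coloured blocks, widths to scale with a thin outline) along 15 clusters, as distance from the start of the first region in kb, with colour for the smaller fold of the 2 replicates on a log scale. The 12 regions of the Ccl6 cluster spread over 56.8 kb, and strong regions (yellow) stand beside weak ones (dark) in the Cd36, Cd33, Tlr2, Clvs1 and Pparg clusters.

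Genes of lipid handling, a main task of AMs, which clear surfactant lipids, were represented by 5 of the 22 listed: Cd36, Abca1, Abcg1, Olr1 and Nceh1. This was 22.7% of the list, beside the 1.53% of all protein-coding genes, and 17 of the 22 had a shared region of any kind, beside 21.5%. The 6 Cd36 regions, over chr5:17833622-17857894 around a gene for fatty acid uptake, had folds of 37.4, 4.55, 13.1, 7.80, 16.6 and 9.76 in replicate 1. In replicate 2 the same regions had 48.7, 6.32, 25.7, 12.2, 22.1 and 19.3. Only the weakest of them, the second, lay at a promoter, and the strongest was intronic, 1874 bp past a TSS. The replicates put the first region highest and the second lowest. Around Abca1, which exports cholesterol, 6 regions reached 22.1 and 35.7. Around Abcg1, a related exporter, 4 regions reached 15.3 and 20.3. The 8 regions inside Nceh1, a cholesterol ester hydrolase, were even in height, from 4.55 to 9.10 and from 5.87 to 15.9, and spread over 45262 bp of introns. Olr1, the receptor of oxidised lipoprotein, was nearest to 4 regions of a cluster of 5.

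Of 14 markers of AMs, all had a shared region, beside 21.5% of all protein-coding genes. Those nearest to a clustered region were 4, or 28.6%, beside 1.53%: Pparg, Plet1, Atp6v0d2 and Mrc1. Mrc1 was nearest to only 1 of the 4 regions of its cluster, with folds of 5.53 and 5.87. The others were nearest to Mir511. The Pparg cluster over chr6:115411557-115433052 had 6 regions, with folds along the chromosome of 4.55, 5.85, 33.8, 28.9, 6.50 and 15.9 in replicate 1. In replicate 2 the same 6 had 6.32, 5.44, 49.6, 37.5, 5.87 and 25.7. Regions 3, 4 and 6 were the highest in both replicates, and the highest, region 3, lay 252 bp upstream of a Pparg TSS. Around Atp6v0d2, a subunit of the vacuolar proton pump, 4 regions reached 23.4 and 32.9. Around Plet1, a membrane protein of AMs, 5 regions were low and even, from 5.85 to 7.15 and from 5.02 to 13.1. Of the other markers, Chil3, Car4 and Itgax, which encode a chitinase-like protein, a carbonic anhydrase and the integrin CD11c, had strong shared regions outside clusters, up to 45.8 and 65.4 near Chil3. Marco reached 15.9 and 27.5. The remaining markers had weaker regions. Their top folds were 10.07 and 11.6 near Fabp1, 8.13 and 14.4 near Ear1, and 8.13 and 9.35 near Ear2. They were 8.45 and 7.22 near Krt79, 6.18 and 8.12 near Cidec, and 4.18 and 10.2 near Siglecf.

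Transcription factor genes followed. Of 39 listed macrophage factors, 30 had a shared region, beside 21.5% of all protein-coding genes. Those nearest to a clustered region were 7, or 17.9%, beside 1.53%: Spi1, Runx1, Mitf, Tfec, Klf6, Pparg and Fli1. The 7 regions near Klf6, a zinc finger factor, lay over chr13:5867958-5889888, all downstream of the TSS. Folds of the strongest of them were 27.3 and 42.9, and those of the next 17.2 and 27.1, whereas the others stayed at or below 8.78 and 14.4. Around Spi1, which encodes PU.1, the 5 regions were low and even, from 3.90 to 7.15 and from 7.22 to 11.3. Tfec and Mitf, a related pair of factors, had 4 regions with folds up to 18.5 and 21.7, and 5 with folds up to 12.02 and 15.8. The 4 clustered Runx1 regions reached 7.48 and 11.3, although Runx1 was nearest to 14 shared regions in all, with folds up to 20.8 and 37.5 outside the cluster.

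**Figure D4:**
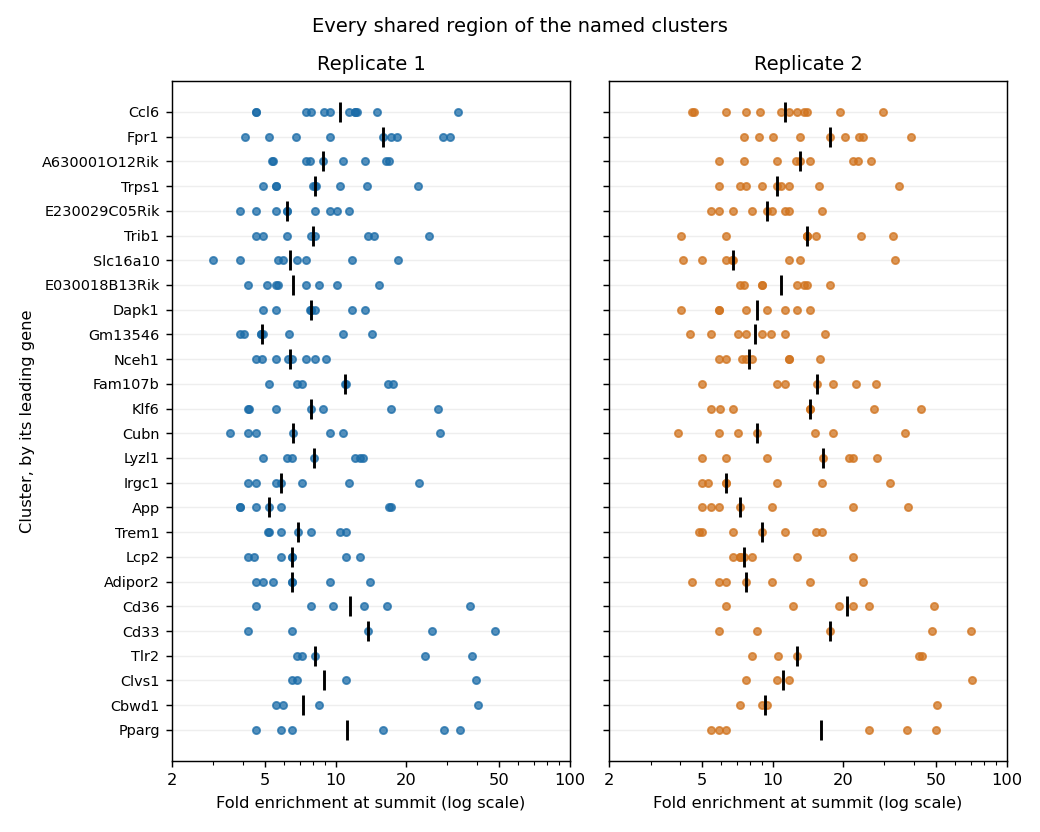
Fold enrichment at the summit (log scale) of every shared region in the 25 clusters named by the rule and in the Pparg cluster, replicate 1 on the left and replicate 2 on the right, with black bars at medians. The Cbwd1 and Clvs1 clusters show 1 region far to the right of the others, whereas the regions of the Nceh1 cluster lie together between 4.55 and 9.10 in replicate 1.

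Clusters also lay near genes of the TGFβ and SMAD pathway itself. Of 37 listed genes, 19 had a shared region, beside 21.5% of all protein-coding genes, and 3, or 8.11%, were nearest to a clustered one, beside 1.53%. Tgfbr1, the type I receptor that phosphorylates the SMAD proteins, had 4 clustered regions with folds from 4.18 to 13.3 and from 5.87 to 21.7. Skil, a corepressor bound by SMAD complexes and itself induced by TGFβ, had 4, from 5.85 to 7.80 and from 7.67 to 12.6. Tgfbi, a secreted matrix protein named for its induction by TGFβ, had 4, from 5.67 to 11.4 and from 6.28 to 14.0. Among other members, the type II receptor Tgfbr2 had 6 shared regions in groups of at most 3, and the inhibitor Smad7 and Smad4 itself had no shared region assigned to them.

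Of 20 listed cytokine and growth factor receptors, 17 had a shared region, beside 21.5% of all protein-coding genes, and 3 were nearest to clusters, beside 1.53%: Il6ra, Il17ra and Notch2. Il6ra, a subunit of the interleukin 6 receptor, had 4 regions up to 18.2 and 30.2. Notch2 had 2 clusters of 4 regions, 22193 bp apart, that reached 15.6 and 18.2 in replicate 1 and 23.5 and 26.6 in replicate 2. Among 23 innate immune receptors, 21 had a shared region and 7, or 30.4%, were nearest to clusters, beside the same 21.5% and 1.53%, namely Tlr2, Clec4d, Cd14, Nlrp3, Sirpa, Trem1 and Mertk. The inflammasome sensor Nlrp3 had 5 regions up to 26.7 and 45.6. Some listed genes were nearest to only part of their cluster: Sirpa to 2 of 4 regions, Cd14 to 3 of 4 and Il17ra to 3 of 5. None of 33 markers of epithelium, endothelium, fibroblasts, lymphocytes and neutrophils was nearest to a clustered region, which in a list of this size is near the 1.53% of all genes. Shared regions outside clusters were assigned to 5 of them (Hopx, Rtkn2, Scgb1a1, S100a8 and S100a9), beside 21.5% of all genes. All the gene lists above were chosen with earlier results of these data known, so their shares are descriptions. They say where regions lay, take no account of how much sequence is nearest to each gene, and were not tested as sets.

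All 9 regions of the Trps1 cluster were in introns of Trps1, a GATA-type repressor, over chr15:50819724-50870359, and the strongest had 22.4 and 34.7. Trib1, a pseudokinase that directs degradation of CEBPα, had 8 regions over chr15:59648318-59679643, and 5 of its 8 summit windows held a CEBP string. This string was in 20.8% of all clustered windows, and in no window of the A630001O12Rik and Dapk1 clusters. A link between the string and the role of Trib1 was not tested. The first Trib1 region, at the promoter, had 8.13 and 14.0, and the strongest, 4371 bp into the locus, 25.02 and 32.5. Introns of Slc16a10, a transporter of aromatic amino acids, held 8 regions with folds up to 18.5 and 33.4. Introns of App, the amyloid precursor gene, held 7, up to 17.2 and 37.9, and those of Cubn, an endocytic receptor, held 7, up to 27.95 and 36.6. The adiponectin receptor gene Adipor2 held 7 intronic regions, up to 13.97 and 24.4. Of 7 regions nearest to the adaptor gene Lcp2, with folds up to 12.7 and 22.1, 4 lay upstream of its TSS, by up to 21635 bp, and all 7 lay in introns of 4930469K13Rik.

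Irgc1 and Plaur, the gene for the urokinase receptor, shared 7 regions, and the strongest, in an intron of Irgc1, had 22.8 and 31.6. Near Fam107b, 7 intergenic regions reached 17.6 and 27.5, and 7 intergenic regions assigned to Lyzl1 and the kinase gene Map3k8 reached 13 and 27.98. A cluster of 8 held the start sites of Klf13, a zinc finger factor, and E030018B13Rik, and reached 15.3 and 17.6. A cluster of 8 over Cytip and Gm13546 reached 14.3 and 16.7. The non-coding loci A630001O12Rik and E230029C05Rik led clusters of 9 regions each, with maxima of 16.9 and 26.2, and of 11.3 and 16.2.

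Sequence copies touched a few clusters. All 8 regions of the Dapk1 cluster, in introns of a death-associated kinase gene, reached at most 13.3 and 14.4, and its summit windows 6 and 7 shared 77.5% of their 12-base words. In the Muc3 cluster a pair of windows shared 23.7%. Reads can be hard to place between such copies, which was not tested here, and the separate folds of these regions are uncertain. No other cluster had a pair of windows above 20%, although windows 1 and 2 of the Trem1 cluster came close, at 19.6%.

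By position, clustered regions resembled the other shared regions. Introns held 50.5% of clustered and 49.1% of other shared regions, and intergenic sequence held 41.7% and 40.3%. Promoters, from 1 kb upstream to 100 bp downstream of a TSS, held 73 of 1474 clustered regions, or 4.95% (exact Clopper-Pearson 95% interval 3.90 to 6.19, counting error only), and 6.65% (6.16 to 7.17) of the others. The share at promoters was 7.01% among single regions, 6.63% in pairs, 5.20% in triplets, 4.26% in clusters of 4, 5.63% in those of 5, 5.69% in those of 6 and 5.56% in larger ones. A promoter region was part of 59 clusters and was the strongest region in 11 of them, as in the Ccl6 and Trem1 clusters. In 22 cases it was the weakest, as in the Cd36 cluster. Clustered promoter regions had median folds of 6.18 and 9.02, intronic ones 7.15 and 9.93, and intergenic ones 7.17 and 10.8. The median distance to a TSS was 17920 bp for clustered and 18050 bp for other shared regions.

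The CEBP string was less common at clustered summits than at the others. It occurred in 307 of 1474 windows of 201 bp, or 20.8% (18.8 to 23.0), and in 24.1% (23.2 to 24.9) of the other shared regions, beside 4.95% and 4.70% in windows placed 1 kb away. Single regions had 26.2%, pairs 21.7%, triplets 19.97%, clusters of 4 regions 19.8%, those of 5 22.5%, those of 6 21.5% and larger ones 21.1%. Pairs and triplets were thus close to the clusters, and single regions stood apart. The share was lower in clustered regions within each of 4 classes of the smaller fold, at 16.0% against 20.3% in the weakest and 26.7% against 30.8% in the strongest, and nearly equal in the second class, at 20.3% and 20.4%. Within clusters it was 27.4% at the strongest region and 15.8% at the weakest. At least 1 region had the string in 195 of 310 clusters. No test over regions was made, because neighbouring regions are not independent.

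The other strings differed by less between clustered and other shared regions, or in the opposite direction. AP-1 letters occurred in 10.7% (9.12 to 12.3) against 8.64% (8.08 to 9.22), and AGGTCA, the core site of nuclear receptors such as PPARγ and RXR, in 17.5% (15.6 to 19.5) against 15.1% (14.4 to 15.8). GTCTGG, the SMAD string, occurred in 12.6% (10.97 to 14.4) against 11.01% (10.4 to 11.7), and in windows 1 kb away in 9.84% and 10.7%, so that at the other shared regions it was hardly above its flanks. PU.1 letters were in 7.80% and 8.03%, RUNX letters in 15.3% and 16.5%, STAT5 letters in 8.14% and 8.05%, and RBPJ letters in 3.87% and 4.18%. The mean GC content was 44.0% and 43.7%, and repeats filled 12.3% and 12.9% of the windows.

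**Figure D5:**
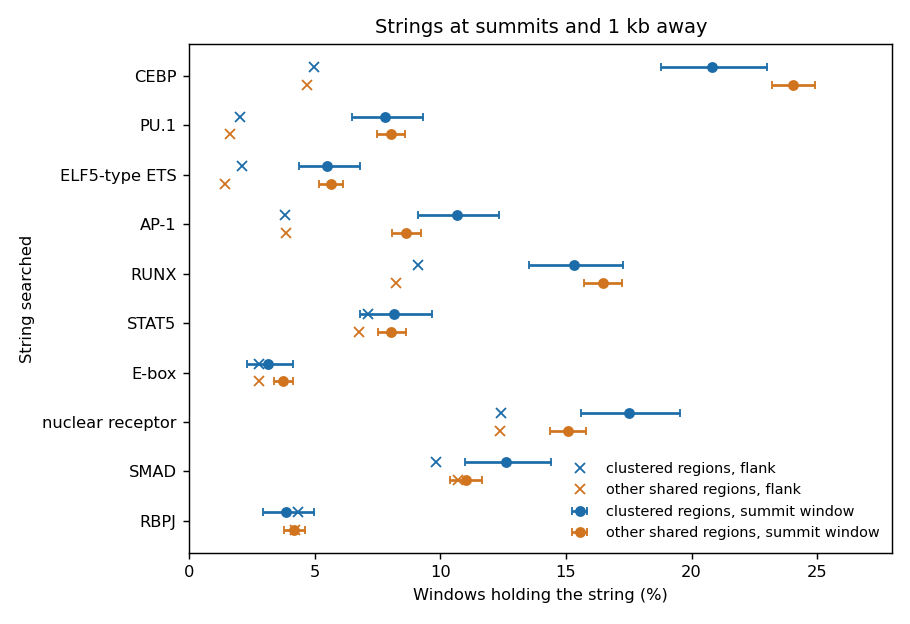
Share of 201 bp summit windows that hold each of 10 strings (circles, with exact Clopper-Pearson 95% intervals for counting error) and share of windows 1 kb away (crosses), for 1474 clustered regions in blue and 9490 other shared regions in orange. The CEBP string is the most frequent in both and lower in clustered regions, at 20.8% against 24.1%. Among the others, single regions had 26.2%, pairs 21.7% and triplets 19.97%.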

How the data were processed

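HT-ChIPmentation of SMAD4 was deposited as 1 peak list for each of the 2 immunoprecipitated libraries, beside 2 inputs. Per the study's methods and the labels, the authors used Cutadapt for trimming and Bowtie2 for alignment to mm10. With samtools they kept properly paired reads of high alignment quality that were no duplicates. They called peaks library by library with MACS3, against input, up to a q-value of 0.05. Each deposited peak has a fold ratio, a −log10 p-value and q-value, a score, which was not used, and a summit offset.

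Pileup and control level were solved from fold and p (largest misfit of −log10 p 0.00054). Sequencing totals were not used here, so that depth is known only as the pileup. Genes were 45657 curated RefSeq transcripts of GRCm38.p6. Shared regions, clusters and strings were computed with Python 3.11.15, pandas 2.3.3 and scipy 1.17.1, and recovered planted clusters in simulated data. Members and gene lists were chosen with earlier results of these data known. Named clusters were the 20 with the most regions, the 5 with the strongest region, and those nearest to listed genes. The Ccl2 and Muc3 clusters and the genes named outside clusters were chosen after their values were seen. Replicate numbers follow accession order only and pair no samples.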

Additional observations from a re-analysis of the deposited data

How the results depend on the processing

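The number of clusters follows from the stitching rule and from how a shared region is defined, so its absolute value is a convention. It was 102 with a stitching distance of 5 kb, 551 with 25 kb, 759 with a minimum of 3 regions, 128 with 5, 191 with 50% reciprocal overlap, 161 with summits within 100 bp and 163 with a fold of at least 5. The regions they held numbered 442, 2901, 2821, 746, 875, 738 and 743 in that order. Peaks of 1 library stitched alone gave 557 to 829 clusters with 2774 to 4324 regions. The ratio of median fold was 1.047 with a minimum of 3 regions, 1.067 with 5, 1.048 at 5 kb, 1.074 at 25 kb, 1.074 for the pileup and 1.065 with reciprocal overlap, in each case above 1. The clustered CEBP share was 13.8% in windows of 50 bp on each side of the summit, 26.3% with 200 bp and 16.2% with a stricter string (TTGC, any base, CAA), against 15.8%, 29.4% and 18.3% in the other shared regions. With the summit of 1 library it was 19.7% to 21.0%, against 22.2% to 23.6%. The clustered promoter share was 14.6% within 3 kb of a TSS and 8.01% with all RefSeq transcripts, against 18.03% and 8.89%. Protein-coding genes numbered 116 by TSS in the span, 230 by gene body over the span, 267 with all RefSeq transcripts, 685 with a minimum of 3 regions and 142 with 5. The rank correlation of clusters between replicates was 0.881 for mean fold, 0.871 for all peaks in the span and 0.878 for the strongest region. Of 49 alternative values, 14 stayed within the tolerance set for them. The tolerance was 1.5 times for a count and the 95% interval for a share or correlation. For the ratio of median fold it was the SD of the 2 replicates, 0.00414, and every alternative ratio lay outside it. Only the ratio was checked for a reversed direction, and none of its alternatives reversed. With 2 libraries of 1 condition, no comparison between conditions can be made. Peaks near the q limit mattered little for the stitching. A q-value of at most 0.01 left 308 clusters with 1463 regions, both within the tolerance for a count. The limit on fold, given above, lowered both numbers beyond it. No paired analysis was possible because the labels carry no replicate numbers.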

Other observations

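Several of the strongest SMAD4 regions of these AMs lay outside the clusters, alone or in groups of at most 3. So did 9490 of all 10964 shared regions. The highest shared region was 9122 bp from the TSS of Lyz1, which encodes a lysozyme, with folds of 54.0 and 96.1. No other shared region lay within the stitching distance. A region 33107 bp from the TSS of Hcar2, a receptor for hydroxycarboxylic acids, had 49.4 and 77.6 and was part of a pair. Another, 5173 bp from the TSS of Chil3, had 45.8 and 65.4 and was part of a triplet. An intron of Gda, the gene for guanine deaminase, held a single region with 45.5 and 60.9. An intron of the chemokine receptor gene Ccr1 held a region with 39.3 and 52.3, part of a triplet.

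Some genes had many shared regions without a cluster. Klf4, a zinc finger factor, was nearest to 14 shared regions, with folds up to 25.02 and 43.1, but never more than 2 were stitched. Creb5 also had 14, in groups of at most 3, and Foxp1 and Dock10 had 12 each. In contrast, 26 pairs of neighbouring clusters lay within 100 kb of each other. The closest, 12820 bp apart, were both nearest to Lrrfip1, and paired clusters were also seen near Notch2, Cd9, Nedd9, Sspn and Dhrs3. Zfp608 was nearest to 24 shared regions, 16 of them clustered, and Trps1 to 24, 9 of them clustered.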
